A study of Mus musculus with 12 samples.

Results

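The comparison covered here is that of 4.5 h with 30 min of cycloheximide, 4 arrays against 4 of the 12 analysed in the series, over all probe sets that are not controls. RNA came from CTLL-2, an established cytotoxic T lymphocyte line from a C57BL/6 mouse that needs interleukin 2 (IL-2) to grow, and was hybridised to Affymetrix whole-genome mouse arrays (Mouse430_2). Per the labels, every culture was grown in 50 U/mL human IL-2, washed, and kept without it for 14 h. Cycloheximide at 20 µg/mL was then added for 30 min in the first group and for 4.5 h in the second, with no IL-2 given back in either, so both groups are starved cells and neither is free of the inhibitor. Another group received the inhibitor for 30 min and then 100 U/mL IL-2 for 4 h, and its replicates 1, 2 and 4 are given beside some genes because they reached the same total time in cycloheximide. All arrays are of 1 cell line, and the labels do not say whether replicates were separate cultures.

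Cycloheximide binds the ribosome and stops peptide elongation. While it is present, RNA can still be made and degraded, but proteins that turn over quickly, such as inhibitors of NF-kappaB and repressors of early genes, are not replaced, and RNAs whose decay depends on translation can persist. IL-2 signals through JAK kinases and the transcription factor STAT5, and T cells deprived of it leave the cell cycle and lose nutrient transporters. A level on these arrays can fall through decay or through less synthesis and rise through the opposite, and fewer cells of a type and less RNA per cell cannot be told apart in such bulk samples.

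The arrays carried many transcripts of a cytotoxic T cell line, but some members of these lists were dim. Cd2 reached 14.7 signal units, Cd5 44.7, Klrd1 60.9 and Klrk1 63.8, and Cd8a read 108 to 335. On the 8 arrays Cd3g, a CD3 chain that signals with the T cell receptor, read at least 19497 signal units, Ptprc, the leukocyte phosphatase CD45, at least 18331, and Gzmb, the granule protease granzyme B, at least 38679. Markers of other cells were mostly dim. The highest reading of a B cell marker was 213 (Pax5) and of an erythroid one 105 (Epor), and Cd79a, Itgam and Myod1, defining genes of B, myeloid and muscle cells, stayed under 100 signal units. Myeloid markers other than Fcgr3 and Cd68 reached 409 (Cd14), muscle markers other than Ckm 545 (Myl4), and fibroblast markers 182 (Col1a2) apart from Thy1, which T cells also express. The summed signal of 12 myeloid markers was 9503 to 12472 at 30 min and 6392 to 6709 at 4.5 h, carried by Fcgr3 and Cd68, and that of 13 muscle markers was 3004 to 3917 and 4439 to 5573, carried by Ckm. The part of these markers in the results was not tested. Per the scanner files scanning of the 4.5 h arrays took place on 1 day that no other array shares, the 30 min replicates 1, 2 and 4 and the 3 IL-2 arrays used here were scanned on another, and the 30 min replicate 3 on another again, so scan day and group cannot be told apart. The 3′ minus 5′ log2 difference of the Actb control probe sets, which grows as RNA is degraded, was 0.29 ± 0.04 at 30 min and 0.56 ± 0.17 at 4.5 h (SD, n = 4 each, exact two-sided permutation p = 0.0286, the smallest that 4 against 4 arrays allow), with 0.797 on the 4.5 h replicate 2. Its part in the results was not tested.

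Among 27022 probe sets tested, 3456 (12.8%) were called, meaning an adjusted p under 0.05 and at least a 2-fold difference. Of these 1715 (6.35%) were higher and 1741 (6.44%) lower at 4.5 h. Taking the brightest probe set of each of 12756 genes, 1482 (11.6%) were called, 915 (7.17%) higher and 567 (4.44%) lower, and 75 rose and 72 fell by more than 4-fold. The early and late arrays did not overlap for 4571 genes (35.8%). The largest rises and falls given below were picked from called genes without overlap, so for them its absence follows from that choice. The median log2 difference of all genes was 0.09. Signals were scaled to a common trimmed mean before deposit, so a change shared by all transcripts would not be seen, and the balance of rises and falls rests on that scaling. The share of called probe sets that were higher was 49.6% as deposited, 48.7% after quantile normalization and 59.7% after centring each array on its median. Centring on cytosolic ribosomal protein genes moved the median of all genes by −0.37 and left 13.6% of 4601 calls higher. In that setting 3977 of the 27022 probe sets were called lower and 624 higher, the background for list counts under it.

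**Figure D1:**
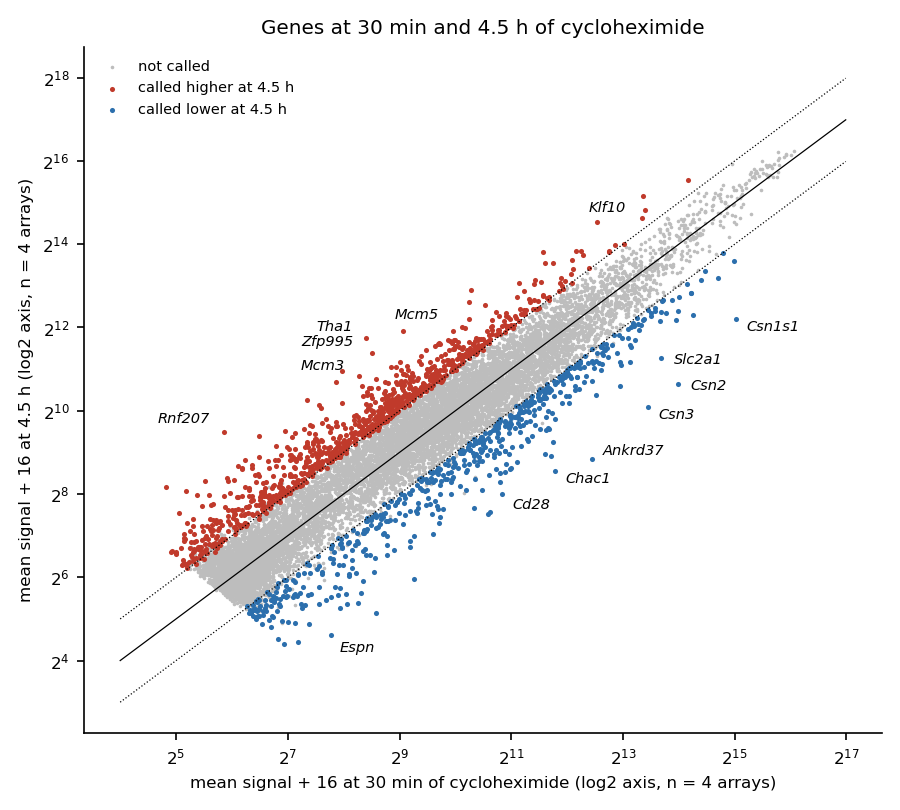
Mean signal plus 16 of each of 12756 genes at 30 min (x axis) and 4.5 h (y axis) of cycloheximide on log2 axes, with n = 4 arrays each. Red points are the 915 genes called higher and blue the 567 called lower, the solid line marks equal signal and the dotted lines a 2-fold difference. The casein genes, Slc2a1 and Ankrd37 lie among the bright genes far below the line, and Rnf207, Tha1 and Mcm3 far above it.

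The largest falls included 3 milk protein genes, classical targets of STAT5 in the mammary gland. Csn2, beta-casein, read 17278, 18587, 14933 and 14221 on the 30 min replicates 1 to 4 and 1320.2, 2560.1, 1281 and 1144 at 4.5 h. Csn3, kappa-casein, stood at 10042, 10630.5, 12394 and 11376 and fell to 1105, 976, 1158 and 1061. All 4 late arrays lay far below all 4 early ones for both genes. The log2 differences were −3.42 ± 0.26 for Csn2 (SE, adjusted p = 1.90e-04) and −3.35 ± 0.13 for Csn3 (adjusted p = 6.51e-05), which left 9.70% and 9.68% of the mean early signal. Csn1s1, alpha-S1-casein, fell as well (log2 difference −2.75), from 33156 ± 11540.2 to 4724 ± 619 (SD, n = 4 each). On the 3 IL-2 arrays Csn2 read 18821, 16624 and 16796 and Csn3 7342, 6736 and 9506, so at the same time in cycloheximide both genes stood far above all 4.5 h arrays. The IL-2 arrays were set against the 30 min replicates 1, 2 and 4, which this comparison shares, with log2 differences of 0.07, −0.46 and −0.34 for Csn2, Csn3 and Csn1s1.

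The promoter stretches of Csn2 and Csn1s1 are shown because STAT5 binds the motif TTCNNNGAA, which reads the same on both strands. Of 32851 promoter windows from RefSeq (GRCm38.p6, 250 bases before to 50 after the start), 8.3% hold it, and those of Csn2 and Csn1s1 do. Csn3 had no window among them, and casein genes other than these were not searched. Each stretch covers the 120 bases upstream of the start, 5′ to 3′ on the gene's strand, with the motif in capitals. A match is a description of the letters only. The Csn2 stretch is chr5:87699426-87699545 (minus strand) and its motif starts 93 bases before the start site, and the Csn1s1 stretch is chr5:87666088-87666207 (plus strand) with its motif 100 bases before.
Csn2: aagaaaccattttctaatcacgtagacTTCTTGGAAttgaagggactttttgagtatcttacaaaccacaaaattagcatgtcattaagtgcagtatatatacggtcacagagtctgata
Csn1s1: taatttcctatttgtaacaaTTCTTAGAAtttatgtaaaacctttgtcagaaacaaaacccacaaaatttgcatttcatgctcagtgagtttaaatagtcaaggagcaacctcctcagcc

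The wider list of 20 STAT5-driven cytokine response genes did not move one way, with a median of 0.23 (−0.14 after ribosomal protein centring). Called higher were 4 (20%, beside 7.17% of all genes) and called lower 4 (20%, beside 4.44%). The 4 rises were in feedback, survival and cytokine genes. Cish, which blocks cytokine receptors, read 721, 862, 910.5 and 878 at 30 min and 1891, 4959.6, 1551 and 1812 at 4.5 h (log2 difference 1.42 ± 0.34, adjusted p = 0.016). Every late array lay above every early one, and the 4.5 h replicate 2 stood far above the rest. The related Socs1 (1.14), the kinase Pim2 (1.36) and Lta, the cytokine lymphotoxin alpha (1.94), also rose. Cdkn1a, the cell cycle inhibitor p21, fell by 1.36 on the log2 scale. On the IL-2 arrays the differences from 30 min were 3.53 for Cish, 3.38 for Socs1 and 4.29 for Lta. The call of Socs1 was lost without the 4.5 h replicate 2, with array weights and with ribosomal protein centring, that of Pim2 with the last, and that of Cdkn1a as a mean over its probe sets. Without probe sets that can cross-hybridise 2 members were called lower. That setting left out probe sets with names ending in x_at, s_at or a_at, although a_at can mark several transcripts of the same gene.

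Hypoxia-inducible genes, which report activity of the HIF factors, were called lower in 7 of 15 tested cases and higher in 0, with a median of −1.04, beside 4.44% of all genes called lower. Ankrd37, an ankyrin repeat gene induced by HIF, had the largest log2 fall among the named genes, which leave out clone and locus names. Its signals were 5065, 4499, 6941 and 5849 at 30 min, 347, 499.5, 452 and 466 at 4.5 h and 173, 126 and 163 with IL-2. The late arrays did not overlap the early ones (log2 difference −3.61 ± 0.19, SE, adjusted p = 1.64e-04), and the IL-2 arrays were lower still (−4.92). P4ha1, a collagen prolyl hydroxylase, fell by 2.10 on the log2 scale, Ero1a, an oxidase of the endoplasmic reticulum, by 1.50, and Bnip3, a mitophagy receptor, by 1.25. Egln1, the oxygen sensor that marks HIF for degradation, fell from 3468 ± 453 to 1673 ± 309, Vegfa, an angiogenic growth factor, from 349 ± 19.7 to 157 ± 53.6, and Mxi1, a Myc antagonist, from 5123 ± 365 to 2519 ± 164 (SD, n = 4 each). Ndrg1, another HIF target, was not called (1.33, adjusted p = 0.063), and its 30 min arrays were split, at 1135, 1147, 319 and 286. The calls of Mxi1, Egln1 and Vegfa, whose differences were close to 2-fold, were lost without the 30 min replicate 2 (Mxi1 and Egln1) or 3 (Mxi1) or the 4.5 h replicate 1 (Egln1), 2 (Vegfa) or 3 (Mxi1). Median centring also ended the calls of Mxi1 and Egln1, and left 5 members lower and 1 higher. Mxi1 lost its call after quantile normalization too, and Vegfa with a constant of 64, with array weights and as a mean over probe sets. Without the 30 min replicate 1 or 2, 1 member was called higher.

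In glucose metabolism the transporter gene fell while most glycolytic genes were not called. Slc2a1, which encodes GLUT1, read 14309, 15075, 11273 and 12085 at 30 min and 2061, 2801, 2162 and 2828 at 4.5 h, with no overlap (log2 difference −2.42 ± 0.17, SE, adjusted p = 1.71e-04). With IL-2 it stood at 5461, 5454 and 4447. The enolase gene Eno3 rose by 1.91 and the aldolase gene Aldoc fell by 2.39 on the log2 scale, the latter to signals of 11.6, 2.4, 89 and 50.7. Of 18 such genes tested, for glucose uptake or glycolysis, 15 were called in neither direction, and the median was −0.13. Called higher was 1 (5.56%, beside 7.17% of all genes) and called lower were 2 (11.1%, beside 4.44%). With ribosomal protein centring 5 were called lower, beside 3977 of all 27022 probe sets.

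Amino acid and stress genes under ATF4, the factor induced when translation initiation is restrained, fell in 6 of 24 cases (25%, beside 4.44% of all genes). The 1 rise was 4.17%, under the 7.17% of all genes, and the median was −0.39. Chac1, which degrades glutathione, read 3412, 3779.6, 3998 and 2927 at 30 min and 177, 831, 203 and 233 at 4.5 h. Every late array was lower, although the 4.5 h replicate 2 lay well above its group, and the log2 difference was −3.52 ± 0.43 (SE, adjusted p = 0.00112). Slc7a1 and Slc7a3, transporters of cationic amino acids, fell by 2.52 and 1.98 on the log2 scale. The glutamine transporter Slc38a2 fell by 1.62, Ddit4, an inhibitor of mTORC1, by 1.57, and Mthfd2, a mitochondrial folate enzyme, by 1.21. Ddit3, which encodes the stress factor CHOP, went the other way, from 1859.9 ± 429 to 4541 ± 232 (SD, n = 4 each, log2 difference 1.31 ± 0.18, adjusted p = 0.0017). As a mean over probe sets the calls of Slc38a2 and Ddit3 were lost, and that of Ddit3 also with ribosomal protein centring.

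Chaperones of the endoplasmic reticulum and other genes of the unfolded protein response fell in 6 of 28 cases (21.4%, beside 4.44% of all genes). Called higher were 0, and the median was −0.66. Dnajb9, a co-chaperone of the lumenal HSP70, stood at 1892, 1468, 2135 and 3218 early and 346, 679, 359.9 and 295 late. The groups did not overlap, with a log2 difference of −2.35 ± 0.31 (SE, adjusted p = 0.00138). The disulfide isomerases Pdia4 (−1.75) and Pdia3 (−1.42) and the degradation factors Sel1l (−1.52), Herpud1 (−1.31) and Selenok (−1.51) fell too. Hspa5, the main lumenal HSP70, was not called (−0.86, adjusted p = 0.0388). With ribosomal protein centring 15 of the 28 were called lower, a setting in which 3977 of all 27022 probe sets were.

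In cholesterol synthesis 6 of 22 genes were called lower (27.3%, beside 4.44% of all genes). The 2 called higher were 9.09%, close to the 7.17% of all genes, and the median was −0.17. Srebf2, the transcription factor that drives the pathway, read 2595, 2629.8, 1425 and 1378 at 30 min and 426, 438, 324 and 309 at 4.5 h. The late arrays lay below the early ones, among which replicates 1 and 2 were higher than 3 and 4, and the log2 difference was −2.32 ± 0.27 (SE, adjusted p = 8.35e-04). Sqle, squalene epoxidase, fell by 2.37 on the log2 scale, from 1869 ± 364 to 351 ± 78.6 (SD, n = 4 each), and its downstream enzymes Msmo1 (−1.96), Cyp51 (−1.65) and Sc5d (−1.18) fell with it. Insig1, which retains the SREBP factors in the endoplasmic reticulum, fell by 1.38. Mvd, an early enzyme of the same pathway, rose from 2171 ± 87.1 to 6758 ± 427 (log2 difference 1.63 ± 0.12, adjusted p = 1.90e-04), and Tm7sf2, a sterol reductase, rose by 1.48. The call of Sc5d was lost as a mean over its probe sets. With ribosomal protein centring 10 genes were called lower, beside 3977 of all 27022 probe sets.

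Genes of quiescence and FOXO, the factors active when growth signals are absent, fell in 5 of 23 cases (21.7%, beside 4.44% of all genes) and rose in 3 (13.0%, beside 7.17%), with a median of −0.33. Ribosomal protein centring gave 7 falls, 0 rises and a median of −0.70, beside 3977 falls and 624 rises of all 27022 probe sets. Ccng2, a cyclin linked to arrest, read 7738, 7156, 7892 and 8923 at 30 min, 1563, 1695, 1386 and 1523 at 4.5 h and 673, 638 and 741 with IL-2. The 3 groups did not overlap, and the late difference was −2.35 ± 0.14 (log2, SE, adjusted p = 1.68e-04). Fbxo32, a ubiquitin ligase of muscle wasting, fell from 872, 980.1, 191 and 338 to 73.1, 31.2, 10.4 and 71.1, with a wide spread among the early arrays (log2 difference −3.18 ± 0.58, adjusted p = 0.00507). Cited2, a transcriptional coregulator, fell by 1.78 and Mxd4, a Myc antagonist, by 1.20 on the log2 scale. Pik3ip1, an inhibitor of PI3 kinase, rose from 1879.6 ± 159.9 to 4241 ± 758 (SD, n = 4 each). The calls of Mxd4 and Pik3ip1 were lost as means over probe sets, and without the 30 min replicate 3 or the 4.5 h replicate 1, 3 or 4 1 rise was called, as also with means over probe sets, with no filter on dim probe sets and with a constant of 1.

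Immediate early genes, the first transcripts made after a growth signal, were lower in 5 of 30 cases (16.7%, beside 4.44% of all genes) and higher in 2 (6.67%, beside 7.17%), with a median of −0.09. Ribosomal protein centring gave 8 lower, 1 higher and a median of −0.46, beside 3977 lower and 624 higher of all 27022 probe sets. Dusp5, a nuclear phosphatase of ERK, read 2197, 2770.4, 1389 and 1771 early and 314, 561, 312 and 334 late (log2 difference −2.37 ± 0.27, SE, adjusted p = 8.28e-04). Dusp1, a phosphatase of several MAP kinases, fell by 1.54 on the log2 scale, Ier3, an early response gene, by 1.29, and the transcription factor genes Fosl2 and Nr4a2 by 1.08 each. Klf10, a zinc finger factor induced by TGF-beta, rose to 24892, 24771, 25082 and 26175 from 9429.8, 10979, 11578 and 9689, and Gadd45b, a stress sensor, rose by 1.72. On the IL-2 arrays Dusp1 went the opposite way, with 5016, 4434 and 2407. Fosl2 and Nr4a2 lost their calls as means over probe sets and without the 30 min replicate 4 and 1 respectively, Klf10 lost its call with ribosomal protein centring, and Gadd45b lost its call without probe sets that can cross-hybridise.

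The 15 largest falls also held genes that the lists above do not hold. Cd28, the costimulatory receptor of T cells, read 1360.1, 1162, 1994 and 2696 at 30 min and 254, 158, 299 and 244 at 4.5 h, and 1328, 1322 and 1572 with IL-2. Its late arrays lay far below the others (log2 difference −2.79 ± 0.30, SE, adjusted p = 6.81e-04). Itgb3, the integrin beta 3 chain, fell by 3.07 on the log2 scale and Cysltr1, a receptor for cysteinyl leukotrienes, fell by 2.83. Synj2, an inositol phosphatase, fell by 3.05 and Myo10, a myosin of filopodia, fell by 2.85. Espn, an actin-bundling protein gene, fell from 146, 189, 237 and 241 to 2.1, 9.9, 10.1 and 11.5, a level at which the added 16 units understate the fall (log2 difference −3.16 ± 0.21). Igfals, a carrier of insulin-like growth factors, and Mypn, a sarcomere protein gene, ended at such dim levels too (22.5 ± 15.3 and 5.65 ± 4.65, SD, n = 4 each). The remaining gene, Crygf, a lens crystallin, was read by a probe set that can cross-hybridise, at 365 ± 105 and 19.2 ± 15.1. With IL-2 Espn, Cysltr1 and Igfals stood above their 30 min level, by 1.12, 2.89 and 1.67 on the log2 scale.

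**Figure D2:**
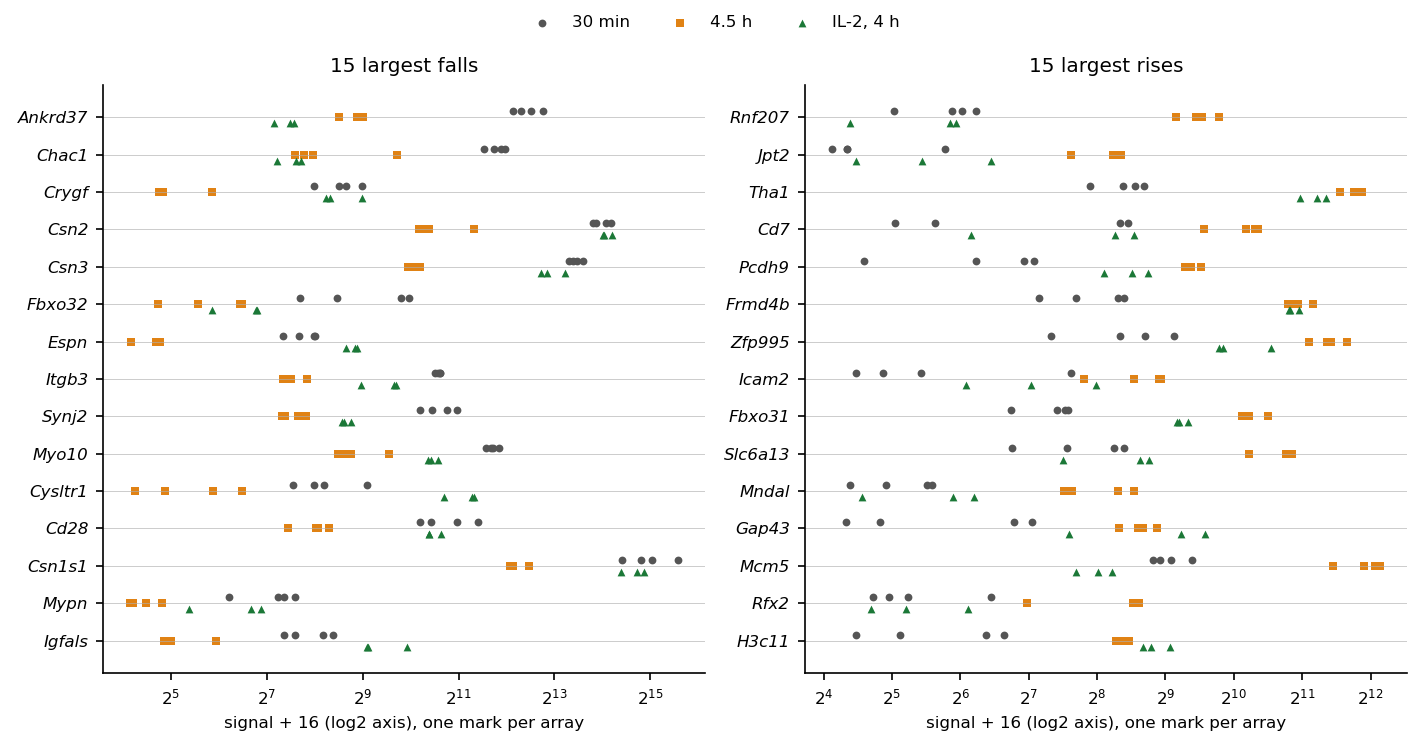
Signal plus 16 on each array (x axis, log2) for the 15 genes with the largest falls (left) and the 15 with the largest rises (right) of those called with no overlap of 30 min arrays (circles) and 4.5 h arrays (squares). Triangles are the 3 IL-2 arrays. The triangles of Csn2 and Cd28 lie with the 30 min circles and those of Ankrd37 below the 4.5 h squares, while on the right those of Rnf207 and Mcm5 lie with or below the circles and those of Frmd4b with the squares.

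Many genes of DNA replication rose. Of 35 tested genes of the G1/S transition and replication 20 were called higher and 0 lower, with a median of 1.21, beside 7.17% of all genes called higher. Every subunit of the MCM2-7 helicase that was tested rose. Mcm5 read 651, 524, 434 and 469 at 30 min and 3826, 2775, 4471 and 4288 at 4.5 h, and Mcm3 298, 263, 326 and 282 and 2055, 1347, 2057 and 1810.4. The late arrays were above the early ones without overlap, with log2 differences of 2.84 ± 0.20 (SE, adjusted p = 1.71e-04) and 2.55 ± 0.17 (adjusted p = 1.69e-04). Mcm2 (1.96), Mcm4 (1.56), Mcm7 (1.48) and Mcm6 (1.39) followed, with the 4.5 h replicate 2 the lowest late array in each.

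Genes that load or accompany the helicase rose as well. Cdt1, a loading factor, went from 1306 ± 111 to 3414 ± 330.2, Gins2, a subunit of the active helicase, from 219 ± 56.1 to 773 ± 179, and Orc1, of the origin recognition complex, from 28.1 ± 22.9 to 134 ± 7.39 (SD, n = 4 each). Pole, the catalytic subunit of a replicative polymerase, rose by 1.74, Uhrf1, which maintains DNA methylation, by 1.82, Tk1, thymidine kinase, by 1.54, and Rfc3, of the clamp loader, by 1.21. Pcna, the clamp itself, was not called (−0.48, adjusted p = 0.0379), nor was E2f1 (−0.33, adjusted p = 0.363), which drives entry into S phase. With IL-2 the list's median relative to 30 min was −0.60, and the members stood apart from one another. Mcm5 was at −1.16, Cdt1 at −1.57 and Tk1 at −1.30, while Rfc3 was at 3.28 and Orc1 at 2.89. The count was 17 to 21 when single arrays were left out and 15 with ribosomal protein centring, which ended the call of Rfc3. The call of Orc1 was lost as a mean over its probe sets, and that of Cdt1 without probe sets that can cross-hybridise. The Cdt1 probe set left out there was of the a_at kind.

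The promoters of Mcm5 and Mcm6 are shown because E2F factors, which drive these genes at the G1/S transition, bind the motif TTTCGCGC or TTTGGCGC (both strands searched). Of all 32851 windows 0.813% hold it. Among 12 Mcm, Gins and Cdt1 genes 8 had a window in the table, and 5 of these hold it, Mcm3, Mcm5, Mcm6, Mcm7 and Cdt1. Each stretch has 120 bases with the matches in capitals, and adjoining matches on opposite strands overlap by 4 bases. The Mcm5 stretch is chr8:75109339-75109458 (plus strand), 170 to 51 bases before the start, and the Mcm6 stretch is chr1:128359716-128359835 (minus strand), 130 to 11 bases before it.
Mcm5: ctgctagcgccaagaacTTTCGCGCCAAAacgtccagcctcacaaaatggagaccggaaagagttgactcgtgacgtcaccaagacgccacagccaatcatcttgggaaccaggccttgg
Mcm6: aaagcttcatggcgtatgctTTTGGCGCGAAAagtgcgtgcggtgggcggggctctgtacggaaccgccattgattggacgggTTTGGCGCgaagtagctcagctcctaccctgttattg

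Histone genes rose in 5 of 18 cases (27.8%, beside 7.17% of all genes) and fell in 0, with a median of 0.59. H3c11, which encodes histone H3, read 6.3, 67.4, 18.6 and 83.2 early and 295, 317, 337 and 317 late (log2 difference 2.73 ± 0.44, SE, adjusted p = 0.00306), and H2aw, of histone H2A, rose by 2.02. H1f4, a linker histone, rose by 2.14, at 108, 94.5, 54.7 and 119 early and 318, 1213, 276 and 392 late, the 4.5 h replicate 2 far above the rest. Standard Affymetrix labelling primes on poly(A) tails, which most histone transcripts lack. Without the 4.5 h replicate 1, 3 or 4 the count was 3, and H2bc22 (1.99), of histone H2B, then lost its call. The count was also 3 with ribosomal protein centring, where 1 histone gene was called lower, and without probe sets that can cross-hybridise. Of 28 genes of G2/M and mitosis 2 (7.14%) were called higher and 0 lower, a share of rises close to the 7.17% of all genes, with a median of 0.12 (−0.26 after ribosomal protein centring), among them Top2a, topoisomerase II alpha (1.15, lost with ribosomal protein centring and as a mean over probe sets). The mitosis count was 6 without the 4.5 h replicate 2 and 1 without the 30 min replicate 3 or 4 or any other 4.5 h array.

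Ribosome biogenesis factors rose in 16 of 47 cases (34%, beside 7.17% of all genes) and fell in 0. The median was 0.70, and 45 of the 47 had a difference above 0. Dkc1, the pseudouridine synthase dyskerin, read 327, 339, 407 and 385 at 30 min and 2003, 1131, 1872 and 1889.8 at 4.5 h. Rrs1, an assembly factor of the large subunit, read 1199, 762, 826 and 1061 and 3209, 2890.1, 3276 and 3248. Neither gene's groups overlapped, with log2 differences of 2.16 ± 0.20 (SE, adjusted p = 4.66e-04) and 1.72 ± 0.17 (adjusted p = 5.86e-04). Polr1b, the second subunit of RNA polymerase I, rose by 1.48, Rrp9, of the U3 particle, by 2.37, Nop56, of box C/D particles, by 1.32, and the nucleolar factors Wdr75 and Ddx18 by 1.62 and 1.08. With IL-2 the list's median was 0.81 against the 30 min replicates 1, 2 and 4, and Rrs1 read 2816, 2332 and 3129. Ribosomal protein centring gave 5 rises and a median of 0.33, and the mean over probe sets ended those of Wdr75 and Ddx18. Ddx18 also lost its call without the 30 min replicate 2.

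Inhibitors, subunits and targets of NF-kappaB rose in 8 of 18 cases (44.4%, beside 7.17% of all genes) and fell in 0. The median was 0.82. Nfkbia, the inhibitor I-kappaB-alpha and a target of the factor it restrains, read 4647, 3899.7, 5763 and 5632 early and 15115, 11020.4, 14396 and 14552 late. Bcl3, an atypical member of that family, stood at 739, 607, 881 and 547 and 2613, 3302, 2644 and 2596. The late arrays lay above the early ones for both, with log2 differences of 1.47 ± 0.18 (SE, adjusted p = 0.00111) and 2.00 ± 0.18 (adjusted p = 4.13e-04). The subunits Relb and Rel rose by 1.96 and 1.18, the inhibitors Nfkbie, Nfkbiz and Nfkbib by 1.77, 1.11 and 1.09, and Tnfaip3, the ubiquitin-editing enzyme A20, by 1.39. The IL-2 arrays differed from the 30 min arrays by 1.17 for Nfkbia, 2.78 for Bcl3 and 2.70 for Rel. With ribosomal protein centring 4 of the 8 calls were lost (Tnfaip3, Nfkbib, Rel and Nfkbiz), and that of Rel also without the 30 min replicate 1, of Nfkbib without the 30 min replicate 4 and of Nfkbiz without the 30 min replicate 3 or the 4.5 h replicate 4.

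Transcripts known as substrates of nonsense-mediated decay, which needs a translating ribosome, rose in 8 of 23 cases (34.8%, beside 7.17% of all genes). They fell in 1 (4.35%, beside 4.44%), and the median was 0.46. The 8 include Ddit3 and Gadd45b, given above, and Srsf2 and Srsf3, given below. Map3k14, the kinase NIK, read 528, 494, 461 and 545 at 30 min and 2248, 1642, 2054 and 2126 at 4.5 h (log2 difference 1.95 ± 0.15, SE, adjusted p = 1.90e-04). Snhg1, a host of small nucleolar RNAs, rose by 1.25, its relative Snhg12 from 747 ± 222 to 1838 ± 476 (SD, n = 4 each), and Luc7l, a splicing factor gene, by 1.27. For Snhg1 the early arrays were split, at 1414, 1351, 3123 and 3303, and the late ones read 4757, 6502, 4686 and 4387. The 1 fall was that of Cdkn1a, given above. Of 11 factors of that decay pathway 0 fell, and the median was 0.79. Its helicase Upf1 (1.56) and Smg5 (1.07) rose, 2 in all (18.2%, beside 7.17% of all genes). That count was 4 without the 30 min replicate 4 and with median centring, and 1 with ribosomal protein centring and with a constant of 64.

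SR proteins select splice sites and control their own transcripts through that decay route. Genes of a list of them and their kinases rose in 5 of 17 cases (29.4%, beside 7.17% of all genes). They fell in 0, with a median of 0.57. Srsf1 read 4741, 2628, 3791 and 4032 early and 9995, 8506, 9867 and 9113 late, without overlap (log2 difference 1.33 ± 0.19, SE, adjusted p = 0.00197). Srsf10 rose by 1.90, Srsf2 by 1.32, Srsf3 by 1.25 and their kinase Srpk2 by 1.25. Srsf2 and Srsf3 are also counted among the decay substrates. With ribosomal protein centring 1 of 17 genes of the SR list and 2 of 23 substrates were called higher. Without probe sets that can cross-hybridise 3 and 5 were, with Srsf2 and Srsf3 among the calls lost in both settings. In each of these settings 2 substrates were called lower. Srsf3 was read by an a_at probe set and Srsf2 by an s_at one. The calls of Srsf1, Srsf10, Srpk2, Luc7l, Snhg1 and Smg5 were lost as means over probe sets. Snhg1 also lost its call without the 30 min replicate 1 or the 4.5 h replicate 1 or 2, and Smg5 without the last.

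Genes named Zfp and a number, most of which encode C2H2 zinc finger proteins, were called higher in 44 of 248 cases (17.7%, beside 7.17% of all genes). Called lower were 4 (1.61%, beside 4.44%), and the median was 0.39. Zfp995 read 306, 144, 399 and 541 at 30 min and 2716, 2179, 2605 and 3207 at 4.5 h, and Zfp930 117, 81.4, 95.9 and 133 and 641, 626, 748 and 842. Neither gene's groups overlapped, with log2 differences of 3.01 ± 0.35 (SE, adjusted p = 9.08e-04) and 2.58 ± 0.18 (adjusted p = 1.71e-04). Zfp658 (1.93), Zfp623 (1.69) and Zfp771 (1.62) were among the others. With ribosomal protein centring 17 were called higher and 13 lower, and the median was 0.02. Of all 27022 probe sets 624 were higher and 3977 lower in that setting.

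**Figure D3:**
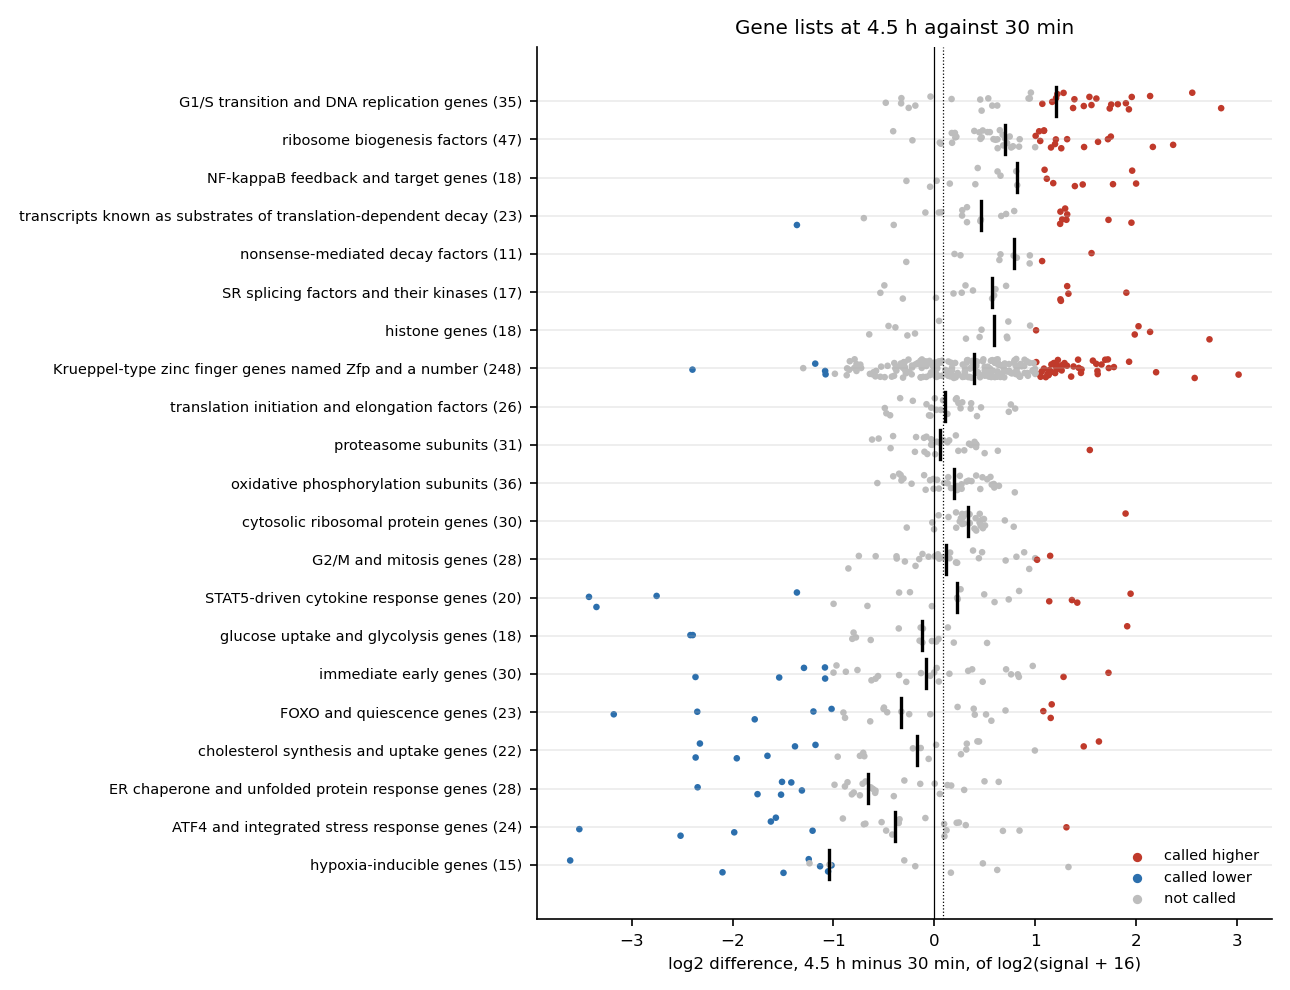
Log2 difference of 4.5 h minus 30 min (x axis, of log2(signal + 16)) for each tested gene of 21 lists, 1 point per gene, with the number of genes in brackets. Red points were called higher, blue lower and grey in neither direction, the black bar is the list's median and the dotted line the median of all genes. Replication, ribosome biogenesis and NF-kappaB lists have red points and no blue ones, and the hypoxia and unfolded protein response lists blue points and no red ones.

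The other largest rises fell into no list. Rnf207, a RING finger gene, read 42.8, 16.8, 49.1 and 58.9 at 30 min and 722, 555, 682 and 865 at 4.5 h, and 45.3, 41.4 and 5 with IL-2. Among the named genes, which leave out clone and locus names, Rnf207 had the largest log2 rise. Its late arrays lay far above both other groups (log2 difference 3.69 ± 0.27, SE, adjusted p = 1.71e-04). Tha1, threonine aldolase, read 223, 316, 394 and 359 and 3755, 2998, 3436 and 3587, and with IL-2 1979.9, 2372 and 2593, so it was high in both groups with the longer exposure (log2 difference 3.37 ± 0.19, adjusted p = 1.68e-04). Frmd4b, a scaffold with a FERM domain, and Fbxo31, a subunit of ubiquitin ligases, rose by 3.06 and 2.94 and stood at 1846 ± 112 and 587 ± 36.6 with IL-2 (SD, n = 3 each). Cd7, a surface protein of T and NK cells, rose to 1145, 737, 1292 and 1248 from early arrays that were split, at 334, 306, 17.1 and 33.6. Icam2, a ligand of the integrin LFA-1, Gap43, a growth-associated protein of neurons, and Pcdh9, a protocadherin, also rose from widely spread early levels (2.95, 2.87 and 3.18). Slc6a13, a GABA transporter, Mndal, of the interferon-inducible p200 family, Rfx2, a factor of cilia genes, and Jpt2, the remaining genes, rose by 2.92, 2.90, 2.83 and 3.48, the last 3 from early levels under 100 signal units.

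**Figure D4:**
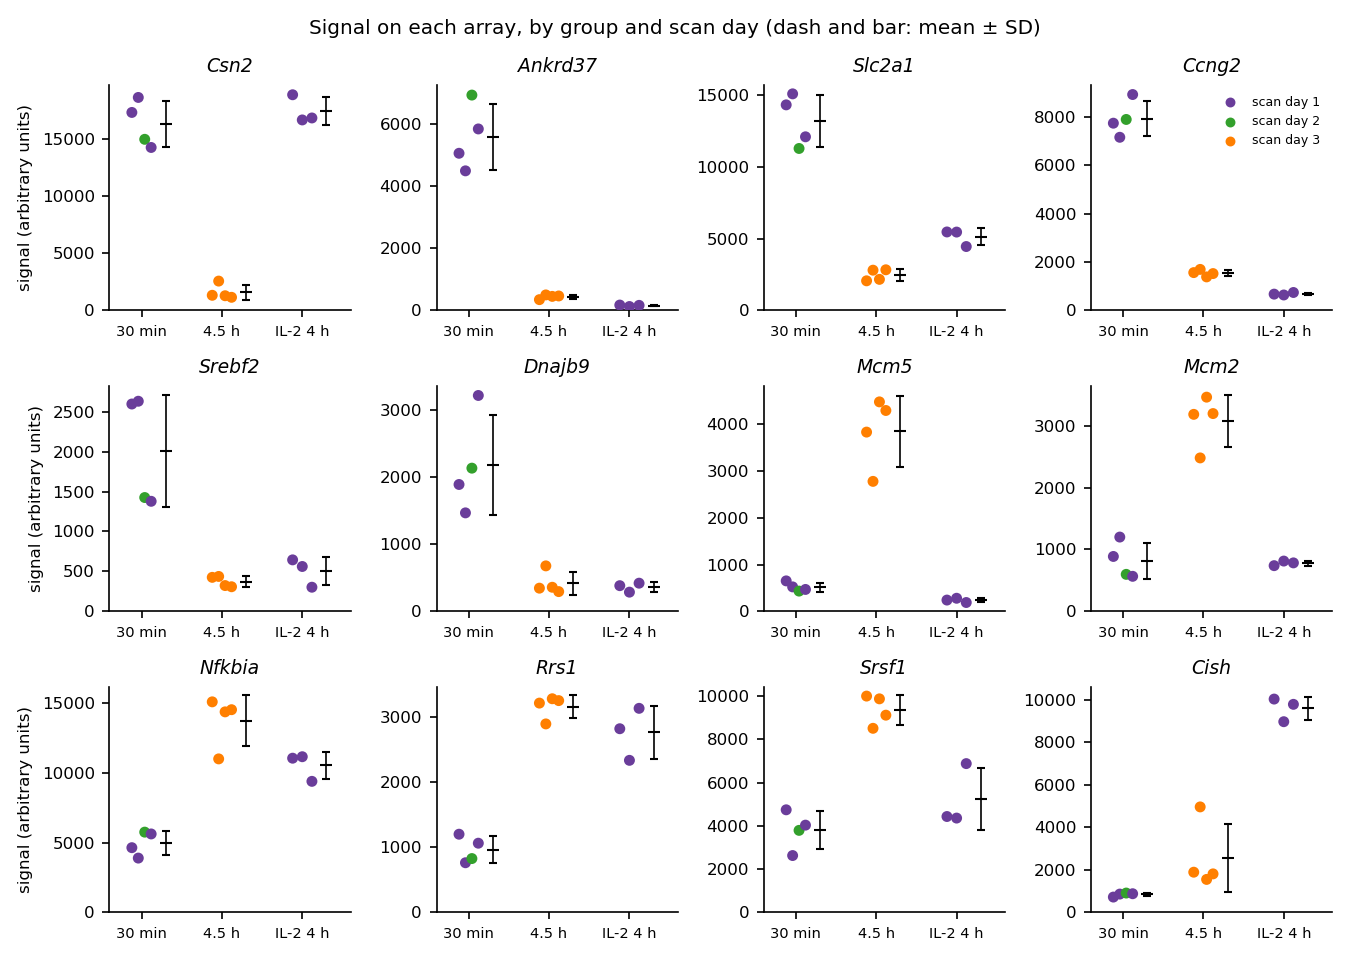
Signal in arbitrary units on each array for 12 genes at 30 min, at 4.5 h and with IL-2 for 4 h, each point an array coloured by its scan day and the dash with its bar the mean ± SD (n = 4, 4 and 3). The 4.5 h arrays (scan day 3) are low for Csn2, Slc2a1 and Srebf2 and high for Mcm5, Mcm2 and Nfkbia. Ankrd37, Ccng2 and Dnajb9 are low and Rrs1 high on the IL-2 arrays too, which were scanned on day 1 with 3 of the 30 min arrays.

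Most members of the housekeeping lists were not called. Of 26 translation factors and 36 subunits of oxidative phosphorylation 0 were called in either direction, beside 11.6% of all genes, with medians of 0.11 and 0.20. Among 30 cytosolic ribosomal protein genes 1 was called (3.33%), Rpl27a, a protein of the large subunit (1.89), and the median was 0.34. Of 31 proteasome subunits Psmc4, an ATPase of the regulatory particle, was the 1 called (1.54, lost as a mean over probe sets), or 3.23%. Of 40 mitochondrial ribosomal proteins Mrps10 (1.07) was the 1 called, or 2.5%. Of 19 aminoacyl-tRNA synthetases Kars (1.11) and Farsa (1.16) rose, or 10.5%. All these calls were rises, beside 7.17% of all genes called higher. Of 20 RNA polymerase subunits 1 was called higher (5%, beside 7.17% of all genes) and 2 lower (10%, beside 4.44%). Their median was 0.27 (−0.10 after ribosomal protein centring). Polr2b, the second largest of polymerase II, read 4702, 4644, 4881 and 4793 at 30 min and 1449, 1468, 1386 and 1472 at 4.5 h (log2 difference −1.71 ± 0.12, SE, adjusted p = 1.69e-04), Polr3g, of polymerase III, fell by 1.20, and Polr2c, of polymerase II, rose by 1.11. The call of Mrps10 was lost without the 30 min replicate 1, and those of Mrps10, Kars, Farsa and Polr2c with ribosomal protein centring, which turned the medians of the translation factor, oxidative phosphorylation and proteasome lists below 0.

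Among 11 T cell identity genes tested 1 was called, Cd28, which was lower (9.09%, beside 4.44% of all genes). The median was 0.04 (−0.15 after quantile normalization and −0.33 after ribosomal protein centring). Cd2 and Cd5 were too dim to be tested, as were the effector genes Klrd1 and Klrk1. Of 19 cytotoxic effector genes Fasl, the death ligand, was the 1 called (5.26%, close to the 4.44% of all genes called lower). It went from 11552 ± 1165 to 4936 ± 193 (SD, n = 4 each, log2 difference −1.22 ± 0.13, adjusted p = 7.16e-04). Prf1, perforin, differed by −0.53 and was not called, although its late arrays lay below its early ones (27224, 28233, 26301 and 27378 against 35574, 51299, 40422 and 32318). The brightest probe set of Prf1 was among those left out as able to cross-hybridise, and in that fit the difference was 0.21. The other lists were called in few members: 0 of 4 anti-apoptotic and 2 of 10 pro-apoptotic BCL2 family genes (Bok, −1.26, and Bnip3), 1 of 16 p53 targets (Cdkn1a, with 5 called lower after ribosomal protein centring), 2 of 16 G1 cyclins and inhibitors (Ccng2 and Cdkn1a), and 3 of 21 interferon response genes, of which Igtp rose (1.52) and Gbp2 (−1.19) and Rsad2 (−1.04) fell. Falls were 20% of the pro-apoptotic, 6.25% of the p53, 12.5% of the G1 and 9.52% of the interferon list, beside 4.44% of all genes. After ribosomal protein centring 3977 of all 27022 probe sets were called lower. The interferon rise was 4.76%, under the 7.17% of all genes. Of 14 cytokines and chemokines Lta, Ccl5 (1.45) and Il10 (1.02) rose (21.4%, beside 7.17% of all genes) and Fasl fell (7.14%, beside 4.44%). Of 18 genes of AU-rich mRNA decay Tia1 rose (1.38), 5.56% of that list and under the 7.17% of all genes. The call of Il10 was lost without any 1 of 7 arrays (all but the 30 min replicate 2), and that of Rsad2 without the 30 min replicate 1 or 2 or the 4.5 h replicate 1, 2 or 4. Those of Ccl5, Il10 and Tia1 were lost with ribosomal protein centring, and those of Rsad2 and Tia1 as means over probe sets.

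Of 5805 genes with more than 1 tested probe set, 28 had probe sets called in opposite directions. Socs2, a relative of Cish, rose by 1.63 on 1 probe set and fell by 1.70 on another. Rbm39, a splicing factor gene, rose by 1.14 and 1.49 on a pair of probe sets and fell on others, the lowest by 1.65. Malat1, a long nuclear RNA, ran from −1.39 to 1.73 on its called probe sets. For such genes the direction depended on the probe set, and none is given for the gene. Of the 137 called genes named here, 52 lost their call in a fit that adds all 4 IL-2 arrays, among them the replicate 3 that lacks T cell transcripts (Ptprc at 8.4).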

How the data were processed

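Per the submitters' processing notes the signals were made with Affymetrix GCOS 1.3. The deposited values are intensity on a linear scale, and every array has a mean of 500 once the lowest and highest 2% of probe sets are left out, with 23.0% of values over 500 at 30 min and 23.6% at 4.5 h on average. What else the authors did to make them is not given in the sources used here, and the scan day came from the deposited scanner files. Of 45101 probe sets 64 were controls, and of the other 45037 the platform annotation gave 34945 a single symbol, 932 several and 9160 none. A value is log2(signal + 16), so fold changes of dim genes are understated. Probe sets whose mean was under the 40th percentile (a signal of 34.4) were left out. limma 3.58.1 (lmFit and eBayes, R 4.3.3) compared the 4 arrays of each group, with Benjamini-Hochberg adjustment over 27022 probe sets. This is the adjusted p given throughout, and errors of log2 differences are limma's. If replicates were not separate cultures, p-values measure only the spread between these samples. The number of arrays limits the precision. The IL-2 differences come from a separate fit of replicates 1, 2 and 4 of both groups, which share their 30 min arrays with the comparison described. The IL-2 replicate 3 lacked T cell transcripts and was left out of it. Same-numbered samples did not deviate together (correlations of 0.029, 0.063, −0.008 and −0.003), so the numbers were not treated as pairs. The fit was tested on simulated data.

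Genes were named as the 15 largest rises and the 15 largest falls without overlap between groups, clone and locus names left out, plus up to 6 members of each of 38 lists by p-value (8 for lists with many calls), and any other list member with its value. The members and lists were chosen with earlier results of these data known. The alternatives covered 3 other scalings, the added constant, the filter on dim probe sets, the moderation, array weights and other arrays in the fit. Further ones were the replicate number and scan day as blocks, the fold threshold and the removal of probe sets that can cross-hybridise. That removal took all names ending in x_at, s_at or a_at, although a_at can mark several transcripts of the same gene. Means of all probe sets of a gene and each array left out completed the alternatives. A stricter adjusted p of 0.01 was meant as well, but the threshold stayed at 0.05, so that setting repeats the main result. Python 3.11.15 with scipy 1.17.1 was used for permutation tests and matplotlib 3.10.9 for plots.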

Additional observations from a re-analysis of the deposited data

Results flagged for a closer look

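In 26 of 292 sets of 4 arrays examined (8.90%), 1 array lay apart from the other 3, its gap to the nearest exceeding Dixon's 95% critical share of the whole range. Chance marks about 1 in 20 such groups, that is 5.0%. The 4.5 h replicate 2 was the array concerned in 14 of the 26, and no other array in more than 3. Its Gapdh 3′ minus 5′ log2 difference was 0.0503, against −0.122 to −0.111 on the other late arrays. Part of its genes were high in it: Cish read 4959.6 against 1551 to 1891 on the other 4.5 h arrays, Hspa5 18348.1 against 12348 to 12504, Bcl3 3302.3 against 2596 to 2644, Dusp5 561.4 against 312 to 333.7, Tm7sf2 326.7 against 185.6 to 202.8, and Gbp2 282.3 against 199.2 to 209.3. The others were low in it. Kars read 13043.4 against 14894 to 15216, Nfkbia 11020.4 against 14396 to 15115, Rrs1 2890.1 against 3209 to 3276, and Dkc1 1131.1 against 1872 to 2003. Slc6a13 read 1176.7 against 1726 to 1823.5, Jpt2 179.8 against 286.1 to 311.5, and Rfx2 109.7 against 352.5 to 376.9. The larger 3′ minus 5′ differences on this array moved with these values, and their part in them was not tested.

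Dim genes stood out on other 4.5 h arrays. Crygf was 41.9 on replicate 3 (10.8 to 12.4 on the others), Igfals 45.4 on replicate 1 (13.1 to 16.2), and Espn 2.1 on replicate 1 (9.9 to 11.5). At 30 min replicate 1 was high for Jpt2 at 39.0 (1.4 to 4.3) and for Nfkbiz at 226.5 (86.2 to 100.8). Replicate 2 was low for Wdr75 at 321.1 (575 to 595.8) and for H2bc22 at 46.5 (331.6 to 374.3). Replicate 3 was high for Polr1b at 177.6 (127.7 to 134.7) and for Nop56 at 1887.8 (989.8 to 1091). Replicate 4 was low for Pik3ip1 at 1642 (1942 to 1990.2) and for Gins2 at 136.7 (230.1 to 255), and high for Polr3g at 373.6 (251.7 to 266.9).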

How the results depend on the processing

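Of the 3456 calls by probe set (1715 higher, 1741 lower), a constant of 64 in place of 16 left 2257 (1103 lower) and a fit with all 12 arrays 1893 (917 higher, 976 lower). limma's treat against a 2-fold change left 178 (81 higher, 97 lower), and without a fold threshold there were 7731 (4045 higher, 3686 lower). Centring on ribosomal protein genes gave 624 higher and 3977 lower. Leaving out single arrays gave 3120 to 3490 calls, 1505 to 1747 of them higher and 1551 to 1815 lower. The replicate number as a block gave 3317, the scan day as a random block 3333 (correlation 0.0296), and no probe sets that can cross-hybridise 2526. The scan day block cannot separate day from group, as all 4.5 h arrays share a day that no other array has. The calls of 4 named genes, Snhg1, H2bc22, Rsad2 and Il10, were lost under the replicate block, and no other call of a named gene was. Of 137 called genes named, 63 kept their call under all 23 alternatives that leave the thresholds as they are, 29 lost it with ribosomal protein centring, 24 as means over probe sets, 11 without probe sets that can cross-hybridise, 9 with a constant of 64 and 16 in some fit with an array left out. Of 3659 gene values, among them those of the setting that repeats the main result, 3367 kept direction and side of the thresholds. The 1 that turned was Prf1, at 0.21 without probe sets that can cross-hybridise (adjusted p = 0.563). Of 38 list medians 21 changed sign under some alternative, mostly ribosomal protein centring. Signals near the filter of 34.4 limit what dim genes can show. The causes of these differences were not tested.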

Other observations

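Over the 27022 probe sets tested, Pearson's correlation of log2 values between pairs of arrays was 0.942 to 0.960 at 30 min. Among the 4.5 h replicates 1, 3 and 4 it was 0.973 to 0.974, and between each of them and the replicate 2 it was 0.957 to 0.958. Of all 12756 genes, 807 had 30 min arrays more than 4-fold apart and 532 had 4.5 h arrays that far apart. Of the 1482 genes called, 45 and 19 did.

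Some genes divided the arrays of a group in a way that their labels do not give. For Snhg1 the 30 min replicates 1 to 4 read 1414, 1351, 3123 and 3303, and the IL-2 replicates 1, 2 and 4 read 3397, 3916 and 7267, with the replicate 4 the highest of the 3. Cd7 read 334, 306, 17.1 and 33.6 at 30 min and 357, 289.8 and 55.3 with IL-2, where the replicate 4 was the lowest. Gap43 read 116, 94.2, 12.4 and 4 at 30 min and 750.1, 586 and 176 with IL-2, again with the replicate 4 the lowest. The 30 min replicates 1, 2 and 4 and these IL-2 arrays were scanned on 1 day. These values are descriptive, and the genes were picked after their values were seen.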
